A study of Mus musculus with 6 samples.

Results

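Ribosomal protein genes encode the proteins of the cytosolic ribosome, and 87 of the 27179 gene rows of the count table belonged to them. They were the protein-coding rows whose symbol is Rpl or Rps followed by a number, together with Rplp0, Rplp1, Rplp2 and Rpsa. The large subunit had 54 of these genes and the small subunit 33. That rule leaves out 34 rows named as pseudogenes, 10 S6 kinase genes and 2 symbols without a protein-coding entry (Rpl6l and Rps4l). Rps19bp1 and Rps23rg1 match the letters of the rule and are protein-coding, but were left out by choice because their products are not ribosomal proteins. RNA came from cultured satellite cells, the resident stem cells of muscle, taken from the hindlimbs of wild-type (WT) C57BL/6 mice, described as ageing without an age. One group was given recombinant human MG53 (rhMG53), a TRIM family protein of striated muscle known for its part in membrane repair, and the other bovine serum albumin (BSA) as vehicle, each for 72 h in medium with serum and bFGF. All libraries carry the label day 3. Each group had 3 libraries, called biological replicates by the submitters. The labels name no animal or culture behind a library, so every p-value reflects the variation among these 6 libraries only, and some of that variation may be technical.

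Cells make the ribosomal proteins in near equal numbers, because each ribosome holds a single copy of most of them, and muscle growth draws on new ribosomes. Many of their mRNAs begin with a 5′ terminal oligopyrimidine (TOP) tract, a run of C and T that starts at the first base, through which mTORC1 and LARP1 control their translation. RNA counts do not show translation. Most of the genes also have processed pseudogenes, copies that can share reads with them. How reads that match several places were counted is not given in the sources used here, so the level of a single gene with near-identical copies is uncertain.

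The start sites of the genes show the TOP tract and how far the annotated starts depart from it. The windows below run from 15 bases before the annotated start to 15 bases from it on, in the direction of transcription, from the RefSeq promoter table of GRCm38.p6, the assembly behind mm10. Base 16 is the annotated first base of the transcript. Capitals mark the longest run of at least 5 C or T letters in the window. Rps6 (chr4:86857353-86857382, minus strand), Rpl28 (chr7:4792950-4792979, plus), Rps18 (chr17:33955651-33955680, minus) and Rps24 (chr14:24490663-24490692, plus) are shown because their starts meet the TOP rule given after them. Rpl13 (chr8:123102335-123102364, plus) and Rps2 (chr17:24720048-24720077, plus) are shown as the genes of lowest p between rhMG53 and BSA; the RefSeq start used for Rps2 lies inside its gene. Rpl7l1 (chr17:46782642-46782671, minus) is shown as a paralog whose window has no such run.
Rps6: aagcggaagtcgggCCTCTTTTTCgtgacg
Rpl28: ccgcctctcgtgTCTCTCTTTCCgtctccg
Rps18: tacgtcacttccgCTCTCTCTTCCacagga
Rps24: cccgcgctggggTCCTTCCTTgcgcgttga
Rpl13: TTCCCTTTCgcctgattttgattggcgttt
Rps2: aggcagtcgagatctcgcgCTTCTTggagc
Rpl7l1: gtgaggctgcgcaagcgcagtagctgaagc

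Promoter windows, 250 bases before the start and 50 after it, were found for 67 of the 87 genes. The TOP rule asked for a C or T at the annotated start and a run of at least 5 C or T letters that begins within 3 bases of it. It was met by 11 of the 67 genes (16.4%), against 7.24% of 16784 protein-coding genes of the table with a window. Those 11 were Rpl28, Rpl32l, Rpl38, Rps6, Rps10, Rps15a, Rps18, Rps21, Rps24, Rps27 and Rps27rt. A C or T stood at the start in 33 of the 67 genes (49.3%), against 26.6% of protein-coding genes. A run of at least 8 C or T letters lay somewhere in the first 50 transcribed bases in 41 genes (61.2%), against 19.6%. In Rps2 the run begins a few bases after the annotated start, and in Rpl13 it ends before it. The motif CCGGAAG, a binding sequence of ETS factors such as GABPA, was present on either strand in 26 genes (38.8%), against 13.3%. Letters in a window are a description and do not show that a factor binds there.

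The cultures held differentiating muscle. Myh3, the embryonic myosin heavy chain, was at 18062 to 22490 CPM (counts scaled by library size) in rhMG53 libraries and at 21856 to 22537 CPM in BSA libraries. Pax7, which marks satellite cells, was at 7.46 to 10.1 CPM with rhMG53 and 9.28 to 11.2 CPM with BSA, low in both groups, and Myod1, which marks committed myoblasts, at 417 to 471 CPM against 414 to 473 CPM. Summed markers of fibroblasts lay at 469 to 506 CPM with rhMG53 and 434 to 506 CPM with BSA, nearly all of it Col3a1, and those of pericytes at 115 to 128 against 107 to 124 CPM. The pericyte sum was nearly all Pdgfrb and Cspg4, while Rgs5 and Myh11 of that list stayed under 1 CPM in every library. Macrophage markers summed to 1.5 to 3.00 CPM with rhMG53 and 2.07 to 2.25 CPM with BSA. Schwann cell markers (2.06 to 2.19 against 1.01 to 1.70 CPM) and endothelial markers (0.958 to 1.32 against 0.615 to 0.880 CPM) were low and did not overlap between the groups. Single markers that did not overlap included Itga7 of the satellite cell list, lower with rhMG53 (1601 to 1716 against 1736 to 1808 CPM). Dcn of the fibroblast list (18.16 to 20.48 against 15.14 to 18.07 CPM) and Cspg4 of the pericyte list (32.72 to 39.59 against 31.84 to 32.68 CPM) were higher. Over all tested genes, 5.94% were higher and 4.83% lower in every rhMG53 library than in every BSA library. The part of these markers in the results was not tested. Adipocyte and red cell markers stayed under 1 CPM in sum, and no marker with a row was at 0 in every library. In bulk RNA, fewer cells of a type and less RNA per cell cannot be told apart. Gene counts per library totalled 17374151 to 19827476 with rhMG53 and 17898768 to 22738745 with BSA.

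Ribosomal protein mRNAs were abundant and of similar level. After a filter on low counts, 84 of the 87 genes were among the 13769 genes tested, 51 of the large and 33 of the small subunit. Per kilobase of transcript, their median level over the 6 libraries was 391 CPM per kb, against 7.67 CPM per kb for all tested genes with a known length. Without the paralogs whose symbols end in l or rt, 76 genes were left. Their median was 397 CPM per kb, and 68 of the 76 lay within 2-fold of it. Rpl41, whose product is a very short basic peptide of the large subunit, had the highest level, with 1129 ± 97.8 CPM per kb in rhMG53 and 1094 ± 51.5 CPM per kb in BSA (SD, n = 3 each). Rplp1, an acidic stalk protein, followed with 994 ± 83.6 CPM per kb in rhMG53 and 920.1 ± 17 CPM per kb in BSA. Rps24, mutated in some human cases of Diamond-Blackfan anaemia, had 956 ± 68.0 CPM per kb in rhMG53 and 885 ± 29.3 CPM per kb in BSA. Rplp1 and Rps24, neighbours in this order, differed by less than their SD in rhMG53 and by more in BSA. Levels per kilobase depend on the transcript chosen. The annotated transcript used for Rps20 was 3706 bases long, which sets its level at 68.0 CPM per kb.

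**Figure D1:**
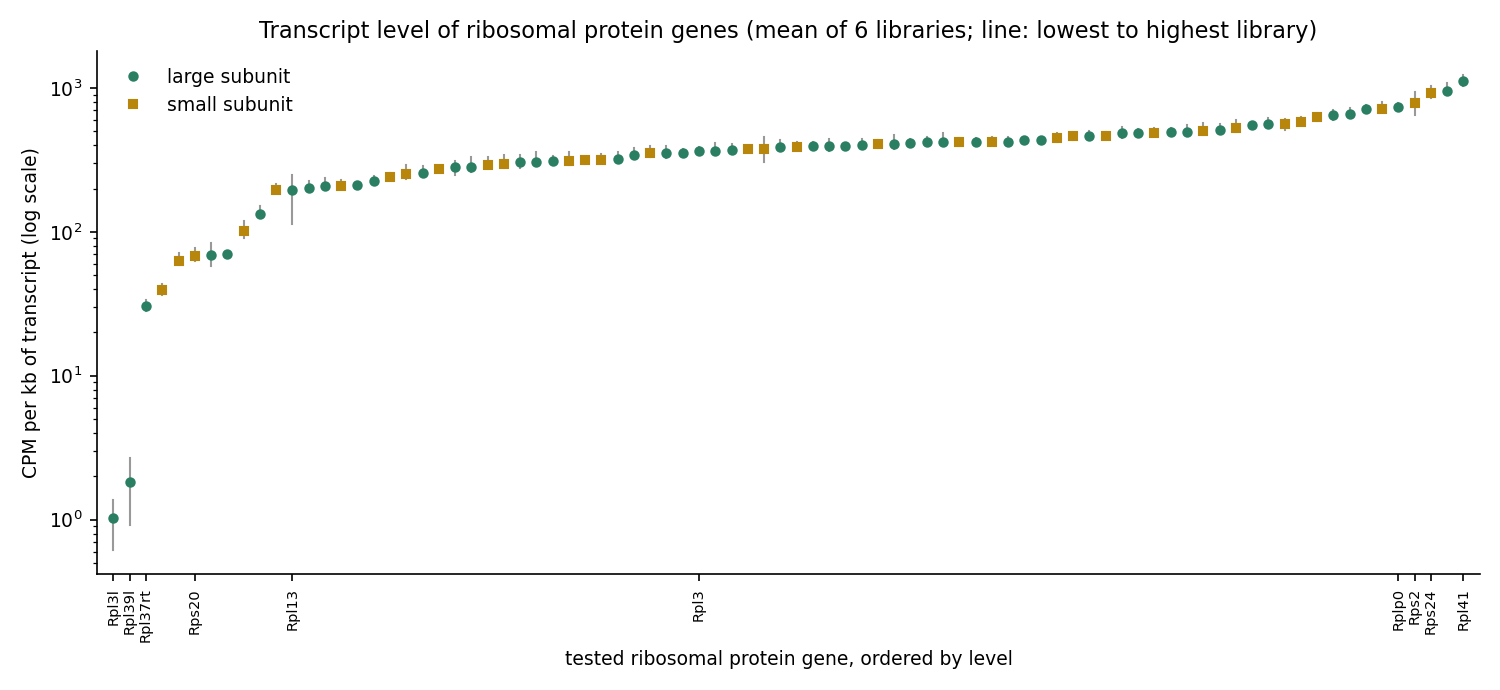
Transcript level of the 84 tested ribosomal protein genes in CPM per kb of transcript (log axis), ordered by level, with large and small subunit genes in separate colours and 10 genes named on the axis. Points are means of 6 libraries and lines span the lowest to the highest library; all but Rpl3l and Rpl39l lie above the all-gene median of 7.67 CPM per kb.

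Of the 3 genes that failed the filter, Rpl10l, a retrogene of Rpl10 needed for spermatogenesis in the mouse, had 0 counts in every library, which allows up to 3 counts in each. Rpl39, a short large subunit protein near the exit tunnel, had 3, 2 and 0 counts in rhMG53 libraries and 1, 0 and 0 counts in BSA libraries. Rpl32l had 5, 3 and 7 counts with rhMG53 and 6, 0 and 2 counts with BSA. Rpl39 is a core protein of the ribosome, and its near-zero count stands apart from the other genes without an l or rt suffix, all of which passed the filter. Whether its reads were assigned elsewhere was not tested.

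A single library stood apart in these genes, and it was rhMG53 replicate 2. It held the highest value of the 6 libraries for 78 of the 84 genes (92.9%). Among the other 13685 tested genes the same library was highest in 22.3%. The exceptions were Rps14, Rpl9, Rps25, Rpl4 and Rpl7l1, which were highest in BSA replicate 2, and Rps27rt, which was highest in BSA replicate 1. Over the genes, the median deviation from the 6-library mean, as log2(CPM + 0.5), was −0.05, 0.14 and −0.03 in rhMG53 replicates 1 to 3 and −0.03, 0.00 and −0.03 in BSA replicates 1 to 3. The level in rhMG53 replicate 2 was a median of 1.12 times the mean of the other 5 libraries. The 3 BSA libraries and the other rhMG53 libraries lay close together.

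**Figure D2:**
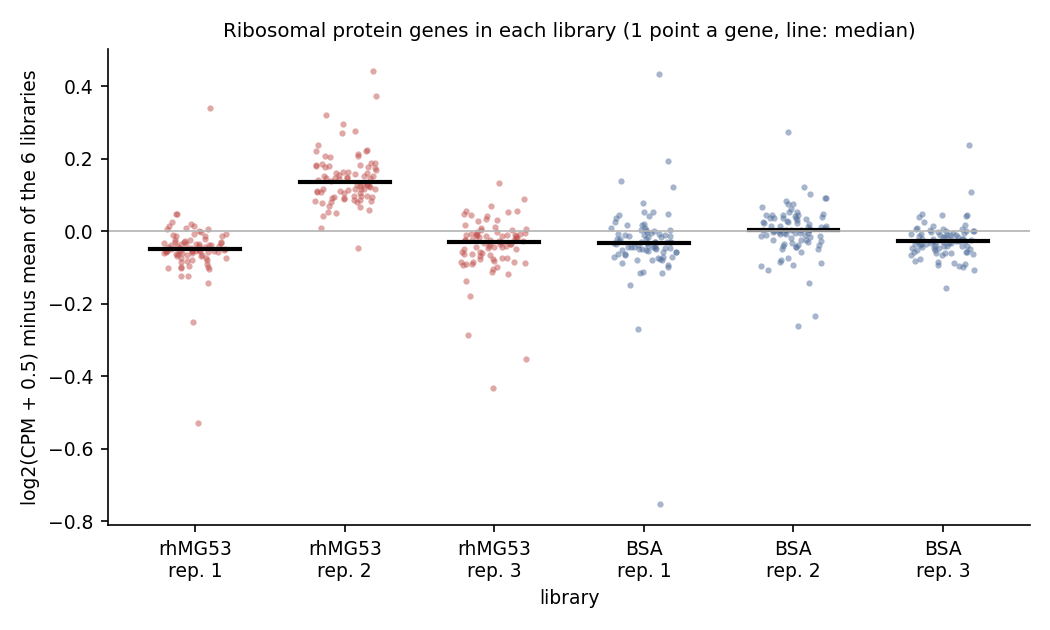
Deviation of each of the 84 ribosomal protein genes from its mean over 6 libraries (y axis, log2(CPM + 0.5)) by library, rhMG53 replicates in red and BSA replicates in blue. Points are genes and black lines medians; the median is 0.14 in rhMG53 replicate 2 and between −0.05 and 0.00 in the other libraries.

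The same library was also high for other short mRNAs. Among 1095 other tested genes with a transcript under 1000 bases, rhMG53 replicate 2 was highest in 46.9%, and their median deviation there was 0.10. Among the 241 of those with a mean of at least 50 CPM it was highest in 61.4%. Among 11774 genes with a transcript of 1000 bases or more it was highest in 19.9%, with a median deviation of −0.01. The library also had the lowest Myh3 level and the lowest sum of differentiating muscle markers, 38504 CPM, against 40526 and 43231 CPM in the other rhMG53 libraries and 41144 to 43197 CPM in BSA libraries. Myh8, another myosin heavy chain, was also lowest there at 2015 CPM. It was at 2669 and 2324 CPM in the other rhMG53 libraries and at 2170 to 2549 CPM in BSA libraries. Ckm and Acta1 lay within the range of the other libraries, while Myog and Tnnt3 went the other way. Myog, a factor of early differentiation, was highest there at 1017 CPM, against 901 and 870.5 CPM in the other rhMG53 libraries and 869 to 911 CPM in BSA libraries. Tnnt3, a fast troponin T, was also highest there at 4305 CPM, against 3617 and 3917 CPM in the other rhMG53 libraries and 3661 to 4051 CPM in BSA libraries. The part of transcript length, RNA quality and differentiation in the ribosomal protein values was not tested. Across the 6 libraries, pairs of the 81 genes of at least 20 CPM correlated with a median r of 0.76, and with a median r of 0.22 when rhMG53 replicate 2 was left out. These correlations share the libraries' scaling and are a description.

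The 87 genes together took 2.39, 2.74 and 2.39% of all gene counts in rhMG53 replicates 1 to 3, against 2.37, 2.43 and 2.39% in BSA replicates 1 to 3. The middle rhMG53 library was the highest and the other rhMG53 libraries lay within the BSA range. The means were 2.50 ± 0.204% with rhMG53 and 2.40 ± 0.0296% with BSA (SD, n = 3 each). The 95% Wilson interval of a single library was at most 0.00755 percentage points to either side, which covers counting error only. Without rhMG53 replicate 2 the difference of means was −0.01 percentage points. Large subunit genes took 1.48, 1.70 and 1.49% with rhMG53 and 1.48, 1.52 and 1.49% with BSA. Small subunit genes took 0.902, 1.04 and 0.900% with rhMG53 and 0.895, 0.910 and 0.900% with BSA. Rows named as ribosomal pseudogenes took 0.0176, 0.0224 and 0.0192% with rhMG53 and 0.0177, 0.0198 and 0.0183% with BSA, again highest in rhMG53 replicate 2.

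No ribosomal protein gene differed between rhMG53 and BSA at the threshold. By the edgeR quasi-likelihood F test, with Benjamini-Hochberg adjustment over all 13769 genes, 0 of the 84 had an adjusted p under 0.05, against 0.0218% of all genes (3 genes). The lowest adjusted p among them was 0.935. At an unadjusted p under 0.05 there were 2 of 84, Rpl13 and Rps2, a share of 2.38% beside 5.2% of all tested genes. Both were higher in rhMG53, as were 2.98% of all genes at that p, and 0 were lower, against 2.22% of all genes. DESeq2 and limma voom also called 0 of them, each with 2 at an unadjusted p under 0.05 (1.77% of all genes in DESeq2 and 5.16% in limma voom). Intervals were narrow. For 71 of the 84 genes the 95% interval of the fold change lay wholly within 1.2-fold in either direction, and the widest intervals were those of the low Rpl39l and Rpl3l and of Rpl13 and Rps27a. The median SE was 0.067 on the log2 scale, against 0.10 over all tested genes.

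Small positive differences were more common than negative ones. The log2 fold change was positive for 67 of 84 genes (79.8%), against 50.5% of all tested genes, and negative for 17. The median log2 fold change was 0.04 for the ribosomal protein genes and 0.00 for all genes, and 72 of the 84 lay within 0.1 of zero. In the large subunit 40 of 51 were positive with a median of 0.04, and in the small subunit 27 of 33 with a median of 0.05. Without rhMG53 replicate 2, 24 of 84 were positive (51.8% of all genes then were), with a median of −0.02, while 77 were positive without rhMG53 replicate 3 (49.3% of all genes). After a trend on transcript GC content and length had been removed, 45 of 84 were positive (50.8% of all genes), with a median of 0.01. Genes at an unadjusted p under 0.05 were then 4 (6.52% of all genes). Their number was 5 without rhMG53 replicate 2 (5.24% of all genes), 7 without rhMG53 replicate 1 (5.54%) and 1 without BSA replicate 1 (4.11%).

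**Figure D3:**
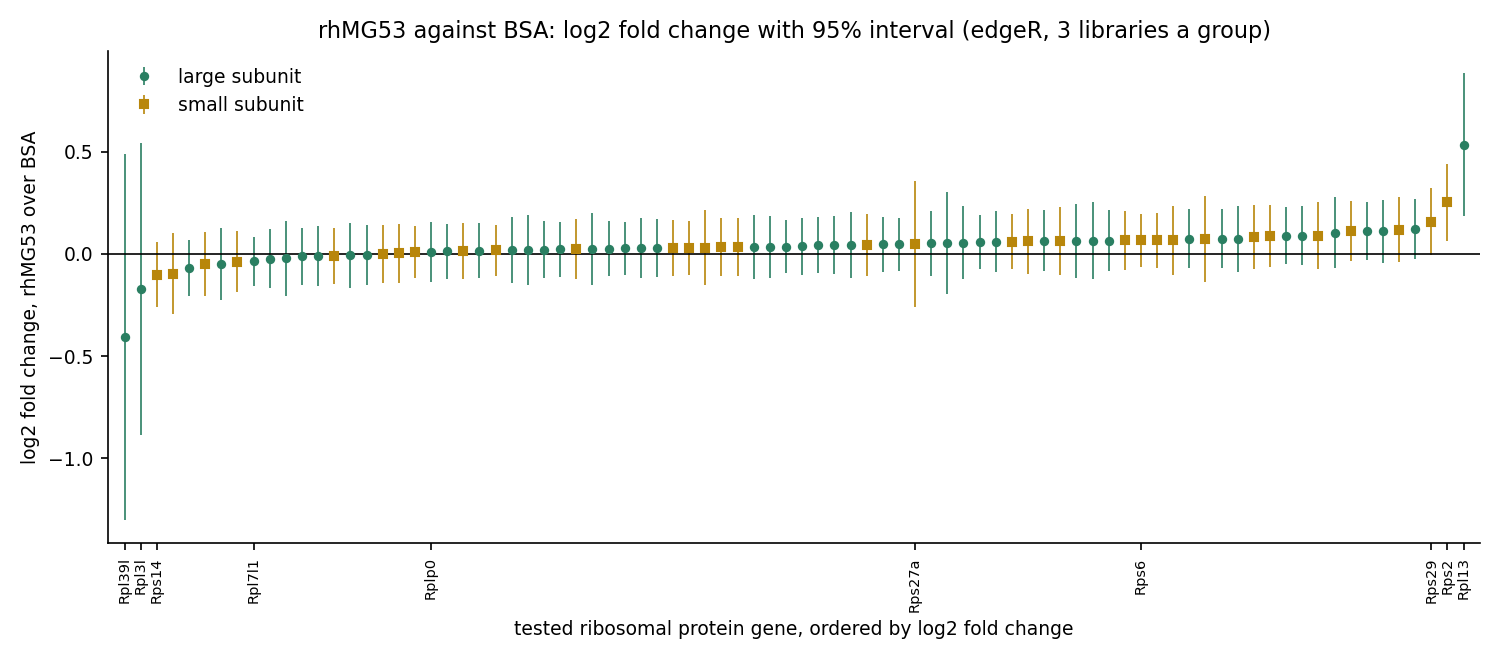
Log2 fold change of each of the 84 tested ribosomal protein genes, rhMG53 over BSA, ordered by size, with the 95% interval from edgeR (3 libraries a group). Values run from −0.41 for Rpl39l to 0.53 for Rpl13, and 72 of 84 lie within 0.1 of zero.

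**Figure D4:**
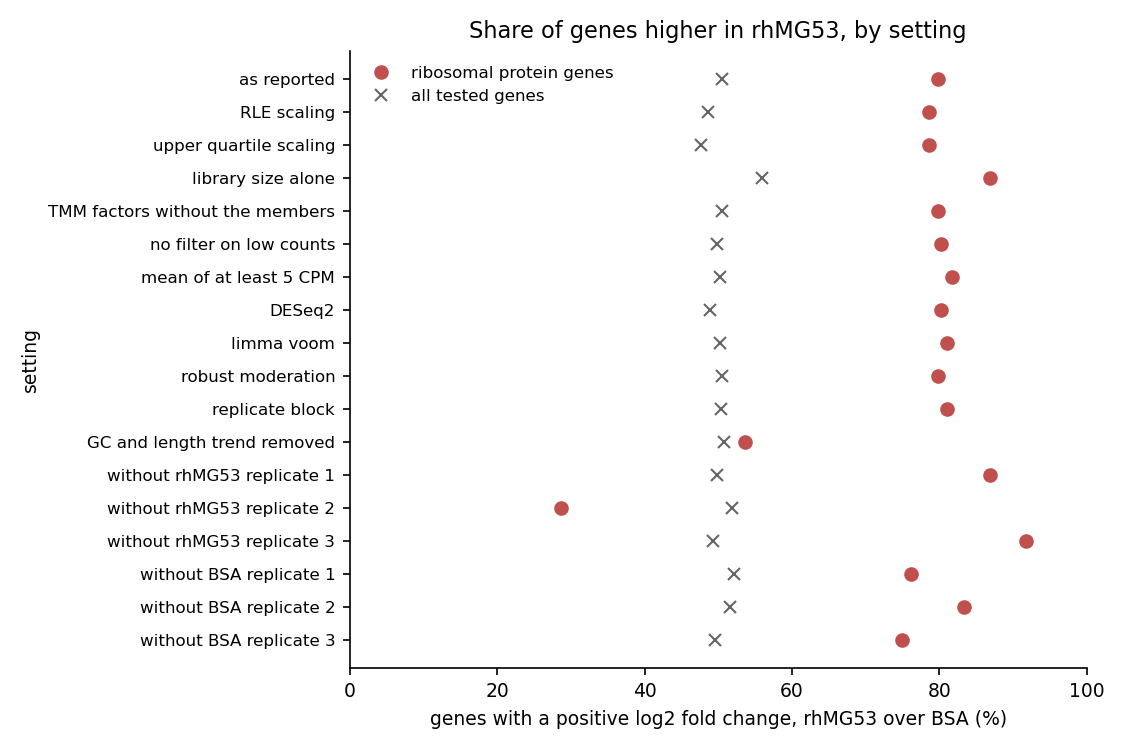
Percent of genes with a positive log2 fold change, rhMG53 over BSA, for ribosomal protein genes (circles) and all tested genes (crosses) under each way of processing the counts. Ribosomal protein genes sit at 79.8% with all libraries, while all tested genes sit at 50.5%; 24 of the 84 are positive without rhMG53 replicate 2 and 45 with the GC and length trend removed.

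Rpl13, a large subunit protein, had the lowest p. It lies at chr8:123102350-123105244 in mm10 on the plus strand. Its level was 188, 192 and 163 CPM in rhMG53 replicates 1 to 3, against 88.1, 134.6 and 153 CPM in BSA replicates 1 to 3. All 3 rhMG53 values were above all BSA values, and BSA replicate 1 was far below the rest. The log2 fold change was 0.53 (SE 0.159, 95% interval 0.18 to 0.88) in edgeR, with an unadjusted p of 0.00645 and an adjusted p of 0.935. Omission of any library gave 0.33 (without BSA replicate 1) to 0.71, and the adjusted p ran from 0.106 to 1.0 over all alternatives. In edgeR with robust moderation the unadjusted p of Rpl13 was 0.0634. Set against the median deviation of the ribosomal protein genes in each library, Rpl13 averaged 0.26 in rhMG53 and −0.26 in BSA on the log2 scale, and its range of 1.11 over the 6 libraries was the widest of the 84. Its pseudogene row Rpl13-ps6 was at 4.49, 7.08 and 4.98 CPM in rhMG53 and 3.62, 5.20 and 4.4 CPM in BSA.

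Rps2, which lines the channel where mRNA enters the small subunit, came next. Its levels were 806, 941 and 810.0 CPM in the rhMG53 libraries, against 647, 733 and 769 CPM in the BSA libraries, in replicate order. The groups did not overlap, and BSA replicate 1 was again the lowest library. The log2 fold change was 0.25 (SE 0.0847, 95% interval 0.06 to 0.44; edgeR unadjusted p = 0.0130, adjusted p = 0.935). With 1 library omitted it ran from 0.17 to 0.30, and without BSA replicate 1 the unadjusted p was 0.0643. Higher in all rhMG53 than in all BSA libraries were 3 of 84 genes (Rpl13, Rps2 and Rps6), beside 5.94% of all tested genes, and lower in all was Rpl7l1 alone, beside 4.83%.

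**Figure D5:**
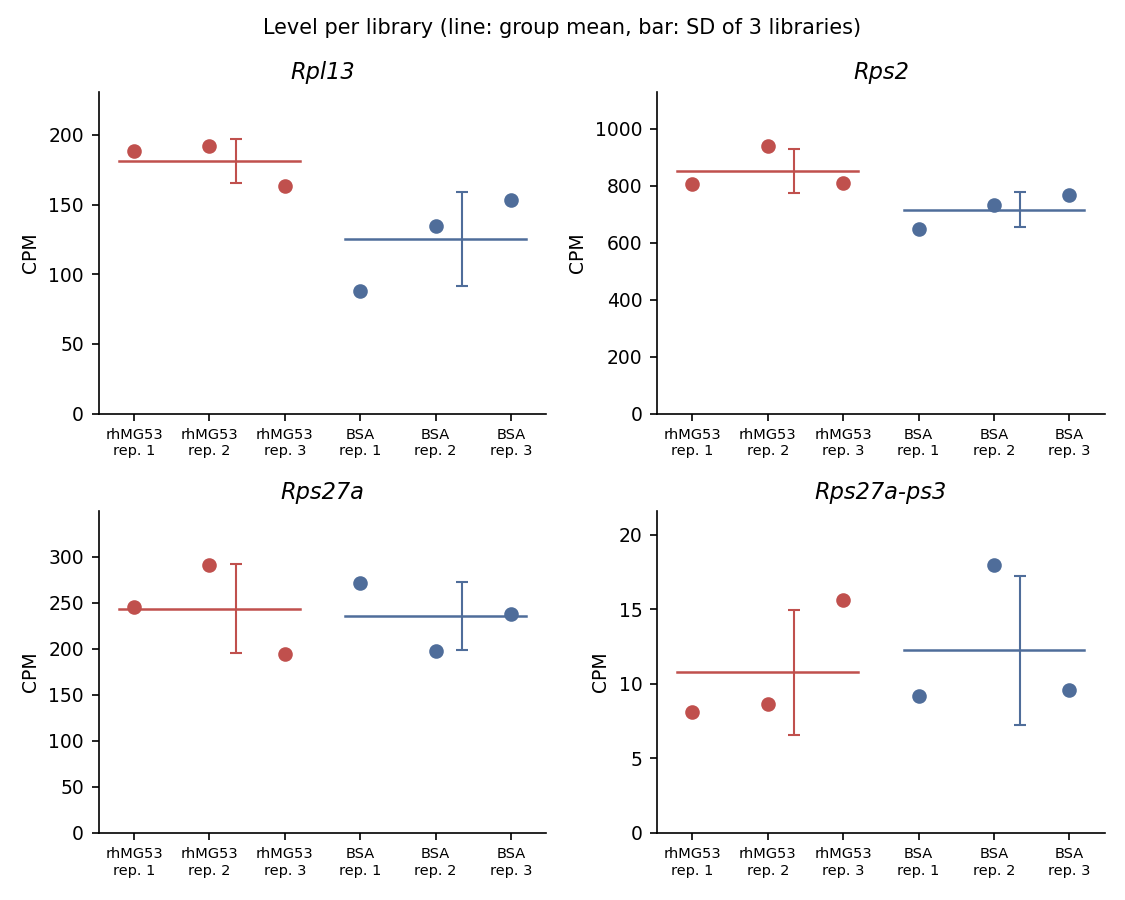
Level in CPM per library of Rpl13, Rps2, Rps27a and the pseudogene row Rps27a-ps3, with rhMG53 replicates in red to the left of BSA replicates in blue (lines: group means; bars: SD of 3 libraries). Rpl13 runs from 163 to 192 CPM with rhMG53 and 88.1 to 153 CPM with BSA, and Rps27a-ps3 is highest in the 2 libraries where Rps27a is lowest.

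The next genes by p had smaller differences and did not pass. Rps29, a small zinc-binding protein of the small subunit, was at 93.7, 114 and 105 CPM in rhMG53 and 91.7, 91.2 and 96.8 CPM in BSA (log2 fold change 0.16, SE 0.0746, edgeR adjusted p = 0.950). Rpl29, a large subunit protein, was at 226, 259 and 234 CPM in rhMG53 and 212, 221 and 229 CPM in BSA (log2 fold change 0.12, SE 0.0666). In both genes the groups overlapped, and rhMG53 replicate 2 was the highest library. Rps24 was at 469, 536 and 483 CPM in rhMG53 and 472, 463 and 442 CPM in BSA (log2 fold change 0.11, SE 0.0670). Its lowest rhMG53 value lay within the BSA values.

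The stalk of the large subunit, which recruits elongation factors, is built on Rplp0, to which heterodimers of Rplp1 and Rplp2 bind. Rplp0, a gene often used as a reference in quantitative PCR, was at 976, 1064 and 988 CPM in rhMG53 and 982, 1058 and 966 CPM in BSA. The groups covered almost the same range, with a log2 fold change of 0.01 (95% interval −0.14 to 0.16). Rplp1 was at 456, 539 and 493 CPM in rhMG53 and 451, 468 and 458 CPM in BSA (0.11, interval −0.04 to 0.26). Rplp2 was at 191, 226 and 211 CPM in rhMG53 and 198, 197 and 204 CPM in BSA (0.07, interval −0.09 to 0.22). For Rplp1 and Rplp2 the highest library was rhMG53 replicate 2 and the groups overlapped.

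Rpl5 and Rpl11 form a particle with the small ribosomal RNA of the large subunit that can bind MDM2 and so stabilise p53. Rpl5 was at 429, 455 and 406 CPM in rhMG53 and 447, 449 and 416 CPM in BSA (log2 fold change −0.02, 95% interval −0.17 to 0.12). Rpl11 was at 323, 367 and 331 CPM in rhMG53 and 319, 335 and 317 CPM in BSA (0.07, interval −0.07 to 0.22). Neither separated the groups. Mdm2 itself had a log2 fold change of −0.07 and Cdkn1a, a target of p53, of 0.06.

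In the small subunit, Rps6, the target of the S6 kinases, was at 427, 461 and 426 CPM in rhMG53 and 416, 424 and 414 CPM in BSA (log2 fold change 0.07, 95% interval −0.06 to 0.20). Its groups did not overlap, but rhMG53 replicate 3 and BSA replicate 2 nearly met. Rps19, the gene most often mutated in human Diamond-Blackfan anaemia, was at 186, 227 and 192 CPM in rhMG53 and 190.0, 197 and 191 CPM in BSA (0.07, interval −0.10 to 0.24). Rpsa, also known as the laminin receptor precursor, was at 678, 721 and 660.0 CPM in rhMG53 and 647, 690.4 and 629.8 CPM in BSA (0.07, interval −0.08 to 0.21). For Rps19 and Rpsa the groups overlapped. Rps14, one of the 6 genes not highest in rhMG53 replicate 2, was at 314, 357 and 306 CPM in rhMG53 and 348, 366 and 333 CPM in BSA (−0.10, interval −0.26 to 0.06), with an unadjusted p of 0.0192 in edgeR when rhMG53 replicate 2 was left out.

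Rps27a, made as a fusion of ubiquitin with a small subunit protein, varied the most between libraries among the abundant genes after Rpl13. It was at 245, 291 and 194 CPM in rhMG53 and 271, 198 and 238 CPM in BSA. The lowest values were in rhMG53 replicate 3 and BSA replicate 2, so the spread lay within the groups, and the log2 fold change was 0.05 (95% interval −0.26 to 0.35). The pseudogene row Rps27a-ps3 was at 8.08, 8.61 and 15.6 CPM in rhMG53 and 9.15, 18.0 and 9.57 CPM in BSA, highest in those same libraries. In CPM the pseudogene row moved far less than Rps27a did, and in proportion to its own level it moved more. Whether reads moved between the 2 rows was not tested.

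Most paralogs with a well-counted parent were minor beside it. Rpl3l, which takes the place of Rpl3 in adult striated muscle, stood per kilobase at 0.259 ± 0.0893% of Rpl3 in rhMG53 and 0.303 ± 0.0581% in BSA (SD, n = 3 each). Rpl3l itself was at 0.909, 1.42 and 0.638 CPM in rhMG53 and 0.884, 1.36 and 1.15 CPM in BSA, so the adult muscle form was hardly detected in cultures with abundant embryonic myosin. Rpl22l1 stood at 16.5 ± 1.68% of Rpl22 in rhMG53 and 16.5 ± 0.987% in BSA. Rpl36al, the autosomal copy of the X-linked Rpl36a, stood at 72.0 ± 4.53% of it in rhMG53 and 71.9 ± 0.486% in BSA. Rpl7l1 stood at 15.8 ± 0.631% of Rpl7 in rhMG53 and 16.5 ± 0.156% in BSA, and at 88.0, 92.2 and 91.0 CPM in rhMG53 against 92.6, 93.4 and 92.2 CPM in BSA. Its rhMG53 values were below the BSA values by very little (log2 fold change −0.04, 95% interval −0.16 to 0.08). Rps27l, a target of p53, stood at 23.5 ± 0.678% of Rps27 in rhMG53 and 21.6 ± 2.04% in BSA, within the spread of the BSA libraries. Rpl37rt stood at 14.2 ± 0.485% of Rpl37 in rhMG53 and 15 ± 0.270% in BSA. Rps4l, counted for the X-linked Rps4x although RefSeq does not list it as protein-coding, stood at 1.84 ± 0.160% of it in rhMG53 and 1.86 ± 0.238% in BSA. Rpl39l, an Rpl39 copy used in the testis, was at 0.505, 1.47 and 0.638 CPM in rhMG53 and 1.46, 0.734 and 1.21 CPM in BSA, with overlapping groups and a wide interval (log2 fold change −0.41, interval −1.30 to 0.49). It was above its parent in every library, since Rpl39 had at most 3 counts, and no ratio to so low a count is given.

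Genes that make, assemble or regulate ribosomes gave no call either, with 0 genes at an adjusted p under 0.05 in edgeR in each of the lists below. These lists were chosen with earlier results known, and their counts are descriptions. Of all tested genes, 50.5% were higher in rhMG53 and 5.2% had an unadjusted p under 0.05 in edgeR. Of the ribosomal proteins with other names, Fau had a log2 fold change of 0.09 and Rack1 of 0.00. Of 77 tested mitochondrial ribosomal protein genes, which serve a separate ribosome, 63 were higher and 14 lower, with a median of 0.06. Only Mrps24 among them had an unadjusted p under 0.05 (18.7, 23 and 19.3 CPM in rhMG53, 14.6, 16.6 and 17.5 CPM in BSA, log2 fold change 0.33). In 63.6% of the 77 the highest library was rhMG53 replicate 2. Of 16 elongation factor and other TOP genes, 14 were higher and 2 lower (median 0.03). There Eif3f, an initiation factor subunit, had a log2 fold change of 0.18, and Naca, a chaperone of nascent chains, had 960.4, 837 and 969.5 CPM in rhMG53 against 1084, 1019 and 1048 CPM in BSA (−0.19, unadjusted p = 0.0250). In 75% of the 16 the highest library was rhMG53 replicate 2, as for most ribosomal protein genes, and Naca alone was lowest there.

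Among 56 ribosome assembly and rRNA synthesis genes, 35 were higher and 21 lower (median 0.02), and Gar1, a protein of small RNA particles that guide pseudouridylation, had the lowest p (11.9 ± 1.09 CPM in rhMG53, 9.96 ± 0.900 CPM in BSA, log2 fold change 0.25, edgeR adjusted p = 0.950). Of 13 chaperones and importers of ribosomal proteins, 8 were higher and 5 lower (median 0.01), led by Grwd1 and Pdcd2 at 0.13 and 0.15. Of 17 tested regulators of TOP mRNAs, 7 were higher and 10 lower (median −0.01). Myc, which drives transcription of ribosomal genes, was at 26.5, 25.3 and 24.4 CPM in rhMG53 and 21.7, 20.8 and 21.4 CPM in BSA. Its groups did not overlap, and 5.94% of all tested genes were likewise higher in all rhMG53 libraries. The log2 fold change of Myc was 0.25 (edgeR unadjusted p = 0.00472, adjusted p = 0.935). Eif4ebp1, an inhibitor of cap-dependent translation, had a log2 fold change of 0.21 (unadjusted p = 0.0247), Larp1 of −0.02 and Mtor of −0.06. Of 9 tested S6 kinase genes 3 were higher and 6 lower, with Rps6ka4 at 0.25 the only one with an unadjusted p under 0.05. All these p-values missed the threshold after adjustment over the genes tested.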

How the data were processed

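RNA of 6 libraries (3 rhMG53, 3 BSA) was sequenced after poly(A) selection with a directional kit, per the labels' protocols. The file deposited by the authors holds raw counts in whole numbers for 27179 NCBI gene IDs. STAR, featureCounts and edgeR are named with mm10 in the submitters' processing notes. Annotation, strand setting and the handling of multiply mapping reads are, for these counts, not given in the sources used here. IDs were named by RefSeq (25275) and GENCODE (18), and 1886 stayed unnamed.

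Genes were kept with filterByExpr (minimum count 10, minimum total 15) and scaled with TMM, and rhMG53 was tested against BSA with edgeR 4.0.16 (R 4.3.3), a 2-sided quasi-likelihood F test with treatment as the only term and Benjamini-Hochberg adjustment over 13769 genes. The overall biological coefficient of variation came to 7.89%. TMM-scaled sizes underlie all CPM values except marker CPM and shares, which rest on plain totals. Levels per kilobase use the shortest GENCODE basic transcript that is principal or linked to RefSeq, or the longest transcript where a gene has none of that kind. Each SD covers 3 libraries. The test was also tried on simulated counts built from the levels and dispersions of these data, with results not given here. Alternatives were other scalings, no filter, DESeq2 1.42.0, limma voom (limma 3.58.1), genes averaging 5 CPM or more, robust moderation, the replicate number as a term, a loess trend on GC content and length (span 0.5) and leaving out each library. Named genes are the 6 of lowest p, paralog pairs, stalk genes, Rpl5, Rpl11, Rps6, Rps19, Rps27a, Rpsa and the 3 highest and lowest by level, and in related lists the 2 of lowest p; Rps14, Rps20, Mtor and Larp1 were added after their values were seen. A few named by this rule are left unreported here. Members and lists were chosen with earlier results of these data known.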

Additional observations from a re-analysis of the deposited data

How the results depend on the processing

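No ribosomal protein gene passed an adjusted p of 0.05 under any of the 17 alternatives, of which 6 leave out a library; the lowest adjusted p was 0.106. Over all genes, where 3 passed, 6 passed without a filter, 5 in DESeq2, 5 with the GC and length trend removed, 0 with the replicate number as a block, and 0 to 4 when a library was left out. Ribosomal protein genes at an unadjusted p under 0.05, 2 with all libraries, were 4 with the trend removed and 1 to 7 when a library was left out. The positive count of 67 became 24 to 77, its median −0.02 to 0.07, and the difference in share −0.01 to 0.17 percentage points, with the lowest of each without rhMG53 replicate 2. Same-numbered libraries correlated at 0.19, −0.13 and −0.15, and 1 of 3 rhMG53 libraries correlated best with its own number, so the numbers were not taken as pairs. With the block 68 were positive; its 0 calls stand beside 609 genes at an unadjusted p under 0.05.

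Of 30 named genes 15 kept their sign throughout. With the trend removed, 5 turned: Rpl3 (−0.0048), Rps4x (−0.0070), Rplp0 (−0.0094), Rps19 (−0.0039) and Rpl41 (−0.0018). Leaving out a library turned these log2 fold changes: Rpl3 (−0.028 to 0.048), Rpl3l (−0.51 to 0.047), Rpl7 (−0.0067 to 0.053), Rpl22 (−0.054 to 0.11), Rpl22l1 (−0.087 to 0.18), Rpl36a (−0.049 to 0.13), Rpl36al (−0.0061 to 0.10), Rps4x (−0.0093 to 0.044), Rps27l (−0.026 to 0.16), Rplp0 (−0.030 to 0.051), Rpl5 (−0.066 to 0.014), Rps19 (−0.027 to 0.12), Rps27a (−0.10 to 0.18), Rpl41 (−0.028 to 0.086) and Rpl37rt (−0.098 to 0.024). The cause was not tested. Depth limits Rpl3l and Rpl39l, at about 1 CPM; for the abundant genes the spread between 3 libraries limits precision.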
